A study of Mus musculus with 16 samples.

Results

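The transcripts of 10 receptors for drugs, hormones and lipids were followed in cultured mouse hepatocytes: *Nr1i2*, *Nr1i3*, *Rxra*, *Rxrb*, *Nr3c1*, *Nr5a2*, *Nr2f2*, *Thrb*, *Rara* and *Ahr*. They were matched by gene symbol, by a rule that applies no measured value, and are 10 of the 55450 genes in the count table. Each symbol matched 1 gene, and all 10 passed the filter on low values, an average of at least 1 CPM across the 16 libraries. CPM are a gene's counts relative to the library total, which was TMM-scaled for the levels given here but not for the filter. The filter left 11675 genes to test. All but *Ahr* are nuclear receptors, whereas *Ahr* belongs to a different family of ligand-activated factors (basic helix-loop-helix PAS proteins). The hepatocytes were primary cells from the livers of wild-type mice. By the study's methods its wild-type mice were young adult C57BL/6J males. The cells were kept overnight in serum-containing medium with an insulin, transferrin and selenium supplement, alone (untreated), with sodium itaconate at 10 mM, with a 10-fold dilution of a chemically defined mixture of lipids, or with the combination. The lipid mixture supplies cholesterol together with oleic, palmitic, stearic, myristic, linoleic and arachidonic acid. Every group had 4 libraries, lettered A to D, with 1 library of each group per letter. The labels do not say that letters are separate animals, so that p values measure the spread between these libraries, which may be technical.

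Nuclear receptors bind DNA and, upon binding a small lipophilic ligand, exchange corepressors for coactivators. *Nr1i2* encodes PXR and *Nr1i3* encodes CAR, the liver's sensors of drugs, steroids and bile acids, which act as heterodimers with the retinoid X receptors encoded by *Rxra* and *Rxrb*. The same partners serve the thyroid hormone receptor beta (*Thrb*) and the retinoic acid receptor alpha (*Rara*). The glucocorticoid receptor (*Nr3c1*) waits in the cytoplasm on HSP90 chaperones until cortisol or corticosterone binds, as the aryl hydrocarbon receptor (*Ahr*) does for planar aromatic compounds. *Nr5a2* encodes LRH-1, a phospholipid-binding regulator of bile acid synthesis, and *Nr2f2* encodes COUP-TFII, an orphan receptor that represses or activates depending on the gene.

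The libraries held 22346049 to 35512004 expected counts (median 27719372). Lipid + itaconate replicate B stood apart from the other libraries of its group, and a call or direction that changed without it is given both ways. Of 10 hepatocyte markers listed, 9 matched a gene and all 9 were above 1 CPM, with sums of 35474 to 61913 CPM over the libraries. Among markers of other liver cells, the summed level was 16.4 to 25.7 CPM for stellate cells (1 of 10 above 1 CPM) and 18.1 to 36.0 CPM for endothelial cells (9 of 10). Lymphocyte markers summed to at most 1.28 CPM, and *Nkg7* was at 0 in all 16 libraries. Kupffer cell markers summed to 158 to 293 CPM in the libraries without lipid and to 214 to 328 CPM in those with it. With lipid alone, 5 of the 8 Kupffer cell markers tested fell (adjusted p under 0.05, as for 23.7% of all genes). *Cd68*, a lysosomal protein, rose from 196 to 262 CPM. With lipid on itaconate 7 of the 8 fell and 1 rose (23.5% of all genes each way), with a median log2 fold change of −0.90. With itaconate in lipid-loaded cells 1 fell (1.26% of all genes), with a median of −0.38. Cholangiocyte markers summed to 652 to 1304 CPM without lipid and to 457 to 750 CPM with it. The part of these shifts in the receptor values was not tested, and in bulk RNA fewer cells of a type and less RNA per cell cannot be told apart.

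Levels between genes were compared per kilobase of annotated exon, merged over all transcripts of a gene. The transcripts expressed can be shorter than this length, which would lower the value of a gene. In untreated hepatocytes *Rxra* was the most abundant of the 10, at 23.5 ± 2.04 CPM per kilobase (SD, n = 4), ahead of *Rxrb* at 19.2 ± 1.14 and *Nr3c1* at 15.4 ± 0.899 CPM per kilobase. *Ahr* followed at 10.1 ± 0.736 and *Rara* at 8.35 ± 0.801 CPM per kilobase. *Nr5a2* (4.22 ± 0.455) and *Nr1i2* (4.01 ± 0.404) did not differ beyond their spread on this scale. *Thrb* (1.36 ± 0.254) and *Nr1i3* (1.17 ± 0.0866) also lay within each other's spread, and *Nr2f2* was lowest at 0.437 ± 0.0264 CPM per kilobase. The drug sensors themselves were thus far less abundant, per length, than their *Rxra* partner. At these depths *Nr2f2* had 73 to 176 expected counts per library and *Nr1i3* 104 to 225, against 2458 to 5128 for *Rxra*, so that differences of the 2 former genes are the least precise.

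**Figure D1:**
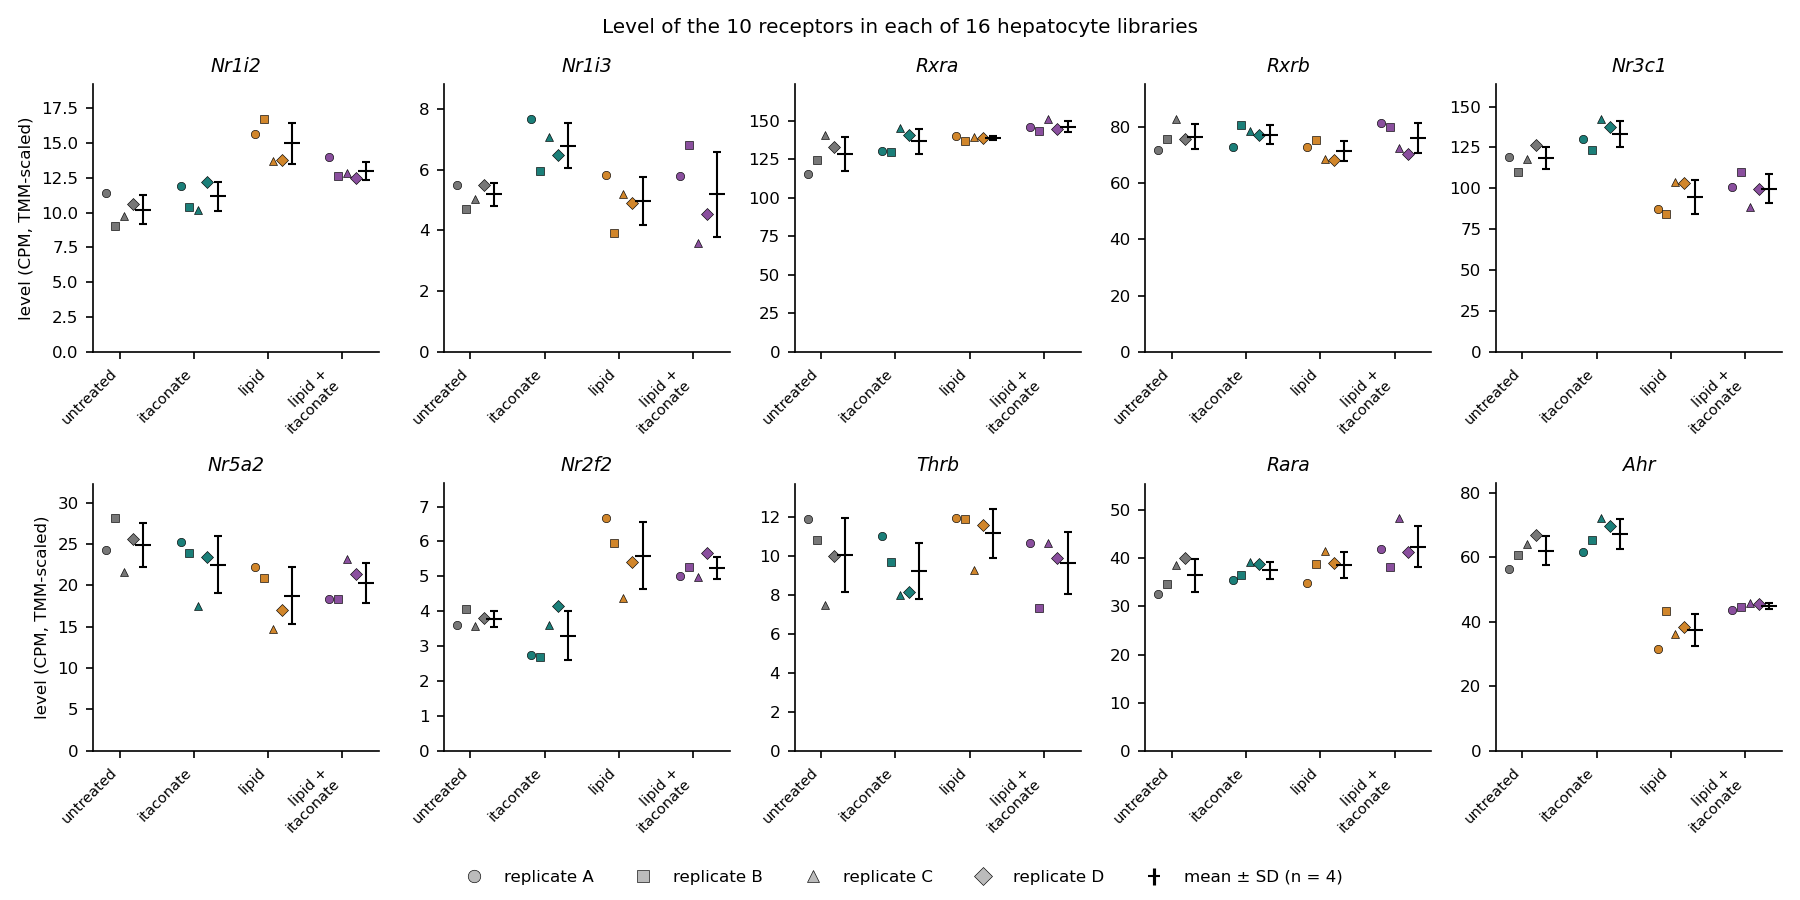
Level of each receptor (CPM, y axis from 0) in the 16 libraries, grouped by treatment on the x axis, with 1 symbol per replicate letter and the mean ± SD of 4 libraries beside them. *Ahr* and *Nr3c1* are lower, and *Nr1i2* and *Nr2f2* higher, in the lipid-treated than in the untreated libraries, with no overlap.

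The lipid mixture moved 6 of the 10 receptors in itaconate-free cells (adjusted p under 0.05, here termed called). The background was not far below, as 47.5% of all genes tested were called in that comparison. *Nr1i2*, *Nr2f2* and *Rxra* rose (23.8% of all genes did) and *Ahr*, *Nr3c1* and *Nr5a2* fell (23.7% of all genes). The libraries of the 2 groups did not overlap for 4 receptors, against 32.5% of all genes. Against itaconate-treated cells, lipid + itaconate-treated cells also had 6 called receptors, with a background of 47%. Here *Nr1i2*, *Nr2f2* and *Rara* rose and *Ahr*, *Nr3c1* and *Nr1i3* fell, against 23.5% of all genes in each direction. Again 4 receptors had groups that did not overlap (31.4% of all genes). These comparisons share no library. *Ahr*, *Nr3c1*, *Nr1i2* and *Nr2f2* were called in both with the same direction, which is 66.7% of the 6 receptors called in each comparison, against 75.8% and 76.7% of all genes called in the first and the second comparison. The sign was the same for 10 of the 10 receptors and for 84.7% of all genes. The median of the absolute log2 fold changes was 0.24 over the receptors and 0.19 over all genes without itaconate, and 0.20 and 0.18 with itaconate.

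*Ahr* showed the strongest fall. It lies at chr12:35497974-35535038 on the minus strand (GRCm38). Its level was 56.4, 60.8, 63.9 and 67.0 CPM in untreated replicates A to D and 31.4, 43.4, 36.3 and 38.5 CPM in lipid-treated replicates A to D. All lipid-treated libraries thus lay below all untreated libraries, in every letter. The log2 fold change was −0.73 (SE 0.061, adjusted p = 2.46e-07), a fall to 0.603 of the untreated level. With itaconate present throughout, *Ahr* went from 61.7, 65.3, 72.0 and 69.8 CPM to 43.5, 44.6, 45.9 and 45.4 CPM on addition of lipid. The groups again did not overlap, and the log2 fold change was −0.58 (SE 0.060, adjusted p = 2.65e-06). Leaving out each library in turn gave log2 fold changes of −0.82 to −0.68 without itaconate and −0.62 to −0.55 with it, all called.

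*Nr3c1*, the glucocorticoid receptor, fell by a smaller amount. It was at 119, 110, 118 and 127 CPM in untreated cells and at 87.7, 84.1, 104 and 103 CPM in lipid-treated cells. No lipid-treated library reached the lowest untreated one, and the log2 fold change was −0.33 (SE 0.073, adjusted p = 0.00181). In itaconate-treated cells it stood at 130, 124, 142 and 137 CPM, and in lipid + itaconate-treated cells at 100.7, 110, 88.5 and 99.9 CPM. These groups did not overlap either, with a log2 fold change of −0.41 (SE 0.072, adjusted p = 0.000289), and −0.51 (adjusted p = 1.16e-05) without lipid + itaconate replicate B.

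The pregnane X receptor moved the other way. *Nr1i2* lies at chr16:38248323-38294824 on the minus strand (GRCm38). It was at 11.4, 9.05, 9.79 and 10.6 CPM in untreated cells and at 15.6, 16.7, 13.7 and 13.8 CPM in lipid-treated cells, which were all higher. The rise was 46.7% (log2 fold change 0.55, SE 0.087, adjusted p = 9.57e-05), and all 8 fits with a library left out called it. On top of itaconate the lipid difference was smaller, from 11.9, 10.4, 10.2 and 12.2 CPM to 14.0, 12.6, 12.8 and 12.5 CPM. These groups still did not overlap and the log2 fold change of 0.22 passed the threshold by little (SE 0.086, adjusted p = 0.0479). The adjusted p reached 0.149 with a library left out, and only the fit without itaconate replicate D kept the call (0.0271). It was 0.0778 without lipid + itaconate replicate B.

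*Nr2f2*, the least abundant receptor, rose in both lipid comparisons. Its gene lies at chr7:70351944-70366735 on the minus strand (GRCm38). The untreated libraries had 3.61, 4.07, 3.58 and 3.82 CPM and the lipid-treated ones 6.66, 5.94, 4.38 and 5.40 CPM. Every lipid-treated library was above every untreated one, with a log2 fold change of 0.57 (SE 0.149, adjusted p = 0.00561). In the presence of itaconate it rose from 2.76, 2.698, 3.61 and 4.15 CPM to 5.01, 5.28, 4.98 and 5.66 CPM. This was a log2 fold change of 0.66 (SE 0.149, adjusted p = 0.00216), again without overlap. COUP-TFII is also a marker of veins and mesenchyme. The endothelial markers summed to 22.4 to 33.7 CPM in untreated and 22.0 to 36.0 CPM in lipid-treated libraries. With itaconate they summed to 18.1 to 28.1 CPM without and 18.5 to 31.9 CPM with lipid. The stellate cell markers summed to 21.5 to 24.5 CPM in untreated and 18.2 to 21.9 CPM in lipid-treated libraries. With itaconate these were 21.9 to 25.7 CPM without and 16.4 to 22.8 CPM with lipid. The part of such cells in the *Nr2f2* values was not tested. Of its exon bases, 7.46% lie opposite *B130024G19Rik*, and whether the counting used strand is not given in the sources used here.

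*Nr5a2* was called with lipid where itaconate was absent. Its values were 24.3, 28.1, 21.7 and 25.6 CPM in untreated and 22.3, 20.9, 14.8 and 17.04 CPM in lipid-treated libraries. It was lower in each of the 4 letters although the groups overlapped (log2 fold change −0.42, SE 0.123, adjusted p = 0.011). With itaconate, the values of 25.2, 23.9, 17.5 and 23.5 CPM became 18.4, 18.3, 23.2 and 21.4 CPM on addition of lipid. The log2 fold change was −0.13 with a 95% interval of −0.39 to 0.13 (adjusted p = 0.392). Replicate C went against the other letters, and without lipid + itaconate replicate C the log2 fold change was −0.30 (adjusted p = 0.0159). The difference between both lipid responses, the interaction, was 0.29 (95% interval −0.08 to 0.65, adjusted p = 0.684), so the lipid response of *Nr5a2* was not shown to differ with itaconate.

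The remaining receptors moved little. *Rxra* was at 115, 125, 141 and 133 CPM in untreated and at 140, 137, 139 and 139 CPM in lipid-treated cells, so that the lipid-treated libraries lay within the untreated range. Its log2 fold change of 0.11 (SE 0.045) had an adjusted p of 0.0496, which rose to 0.188 at most with a library left out and was under the threshold only without untreated replicate C or lipid replicate C. With itaconate the log2 fold change was 0.10 (adjusted p = 0.0793). *Rara* did not pass without itaconate (0.08, 95% interval −0.03 to 0.20, adjusted p = 0.236). It went from 35.6, 36.5, 39.2 and 38.8 CPM in itaconate-treated to 41.9, 38.1, 48.3 and 41.3 CPM in lipid + itaconate-treated cells, higher in all 4 letters with overlapping groups. That log2 fold change of 0.18 was called (SE 0.054, adjusted p = 0.0139), but not without itaconate replicate C or lipid + itaconate replicate A (adjusted p up to 0.0715). *Rxrb* and *Thrb* were not called in any comparison. Their lipid differences had 95% intervals of −0.22 to 0.02 and −0.11 to 0.43 without itaconate, and of −0.14 to 0.09 and −0.19 to 0.35 with it.

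The constitutive androstane receptor needs a caution. *Nr1i3* lies at chr1:171213970-171220701 on the plus strand (GRCm38), and 74.9% of its exon bases are shared with *Tomm40l* on the minus strand. If the counting did not use strand, reads of the 2 genes cannot be told apart. *Tomm40l*, a mitochondrial import gene, had a mean of 9.77 CPM and was not called in any comparison (adjusted p 0.657 for itaconate, 0.993 for itaconate in lipid, 0.841 for lipid and 0.684 for lipid in itaconate). *Nr1i3* itself was at 7.65, 5.95, 7.08 and 6.48 CPM in itaconate-treated and at 5.78, 6.82, 3.59 and 4.53 CPM in lipid + itaconate-treated cells. It was lower in 3 of 4 letters, with replicate B the exception (log2 fold change −0.40, SE 0.157, adjusted p = 0.0488). Without lipid + itaconate replicate B the value was −0.63 (adjusted p = 0.00108), whereas leaving out any other library but itaconate replicate B ended the call (adjusted p up to 0.187). Lipid alone gave −0.07 with a 95% interval of −0.42 to 0.27.

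**Figure D2:**
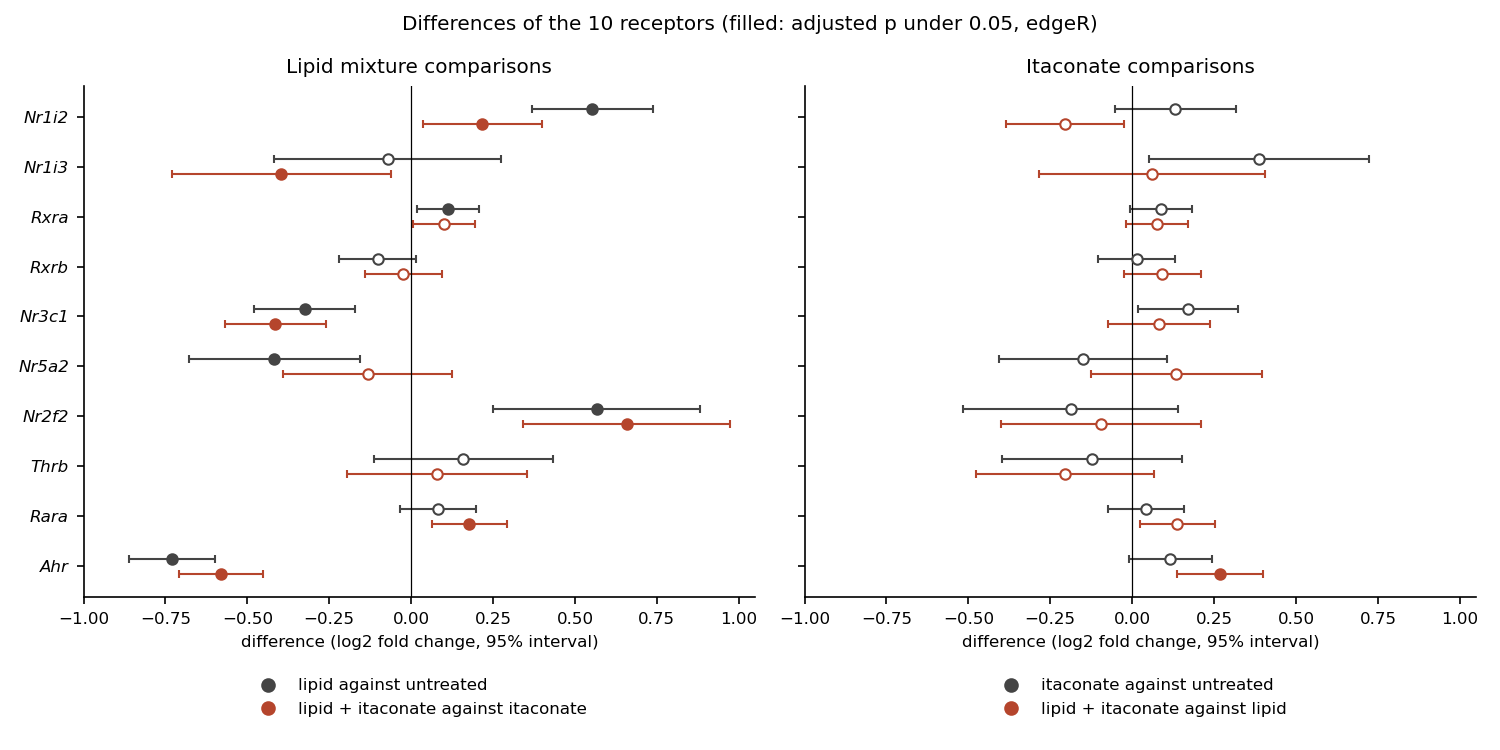
Log2 fold changes (x axis) of the 10 receptors with 95% intervals from the edgeR model, for the lipid comparisons (left) and the itaconate comparisons (right); filled points have an adjusted p under 0.05. In the lipid panel *Ahr* (−0.73 and −0.58) and *Nr2f2* (0.57 and 0.66) lie farthest from 0, whereas in the itaconate panel the only filled point is *Ahr* in the presence of lipid (0.27).

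The question behind the itaconate comparisons is how this immune metabolite acts on hepatocytes with and without a lipid load. Itaconate alone changed no receptor by the edgeR test (0 of 10, against 4.91% of all genes, 1.96% higher and 2.95% lower). DESeq2 and limma-trend also called 0, and 2 receptors had an unadjusted p under 0.05, as did 21.3% of all genes. These were *Nr1i3*, with 5.48, 4.70, 5.04 and 5.49 CPM in untreated cells against the itaconate values given above, and *Nr3c1*. The *Nr1i3* groups did not overlap, as was the case for 1 of 10 receptors and 7.53% of all genes, with a log2 fold change of 0.39 (95% interval 0.05 to 0.72, adjusted p = 0.17). *Nr3c1* was higher with itaconate in 4 of 4 letters (log2 fold change 0.17, 95% interval 0.02 to 0.32, adjusted p = 0.186). *Nr3c1* in lipid-loaded cells had a log2 fold change of 0.08 and *Nr1i3* of 0.06, which were −0.01 and −0.17 without lipid + itaconate replicate B, and neither was called. Without lipid, both were called when the 8 libraries of the comparison were fitted alone (adjusted p 0.0292 and 0.00691) and when no filter was used (0.0442 and 0.0235). Over all genes these settings also called more, 1859 and 1091 genes, against 573 in the main model.

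In lipid-loaded cells itaconate raised *Ahr*, the 1 receptor called of 10 (2.58% of all genes, 1.32% higher and 1.26% lower). All 4 lipid + itaconate libraries (43.5 to 45.9 CPM) were above all 4 lipid libraries (31.4 to 43.4 CPM), and the log2 fold change was 0.27 (SE 0.062, adjusted p = 0.0342). The value stayed at 0.22 to 0.35 with each library left out, but only the fits without lipid replicate B or lipid + itaconate replicate C kept the call. The adjusted p was 0.0552 without lipid + itaconate replicate B, 0.283 when the letter was dropped from the model and 0.259 when the 8 libraries were fitted alone. Even so, the level with both agents remained below that of untreated cells, and those groups did not overlap. *Rxra* was the other receptor whose groups did not overlap (2 of 10, against 5.82% of all genes), at 143 to 151 CPM against 137 to 140 CPM, with a log2 fold change of 0.08 that was not called (adjusted p = 0.404). *Ahr* without lipid was higher by 0.12 on the log2 scale, in 4 of 4 letters, and did not pass the test (95% interval −0.01 to 0.24, adjusted p = 0.274), and the interaction was 0.15 (95% interval −0.03 to 0.33, adjusted p = 0.657).

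For *Nr1i2* the itaconate difference had opposite signs without and with lipid in every letter. Without lipid the log2 differences between letter partners were 0.06, 0.20, 0.05 and 0.20 in replicates A to D, and with lipid they were −0.16, −0.40, −0.10 and −0.14. Neither itaconate difference was called (0.13, adjusted p = 0.402; −0.20, adjusted p = 0.22). The interaction of −0.34 (SE 0.122, 95% interval −0.59 to −0.08) had an unadjusted p of 0.0139 in edgeR's model and an adjusted p of 0.449. No receptor passed the interaction test with edgeR, DESeq2 or limma-trend, *Nr1i2* was the 1 receptor with an unadjusted p under 0.05 (8.6% of all genes), and 0.00857% of all genes passed. The order of group means was therefore lipid (15.0 CPM), lipid + itaconate (13.0 CPM), itaconate (11.2 CPM) and untreated (10.2 CPM). Neighbors in that order overlapped except for lipid + itaconate against itaconate.

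**Figure D3:**
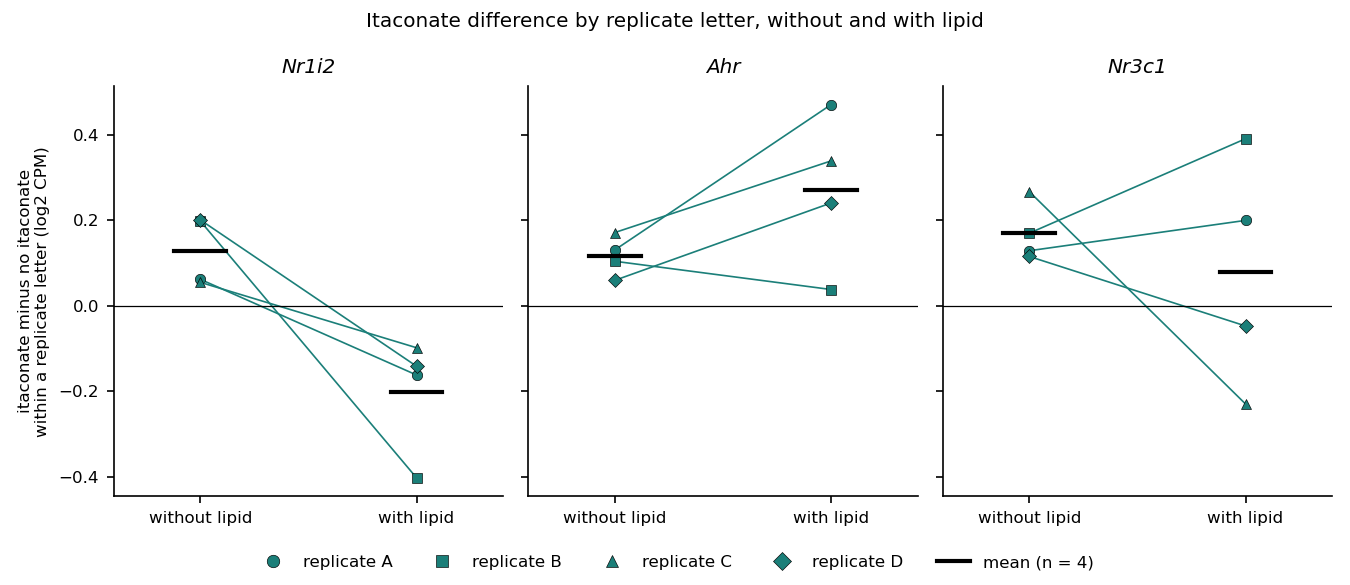
Itaconate minus no itaconate within each replicate letter (log2 CPM, y axis), without lipid and with lipid (x axis), for *Nr1i2*, *Ahr* and *Nr3c1*; lines join a letter and black bars are means of 4. The *Nr1i2* differences are above 0 without lipid and below 0 with lipid in all 4 letters, those of *Ahr* are above 0 throughout, and those of *Nr3c1* fall on both sides of 0 with lipid.

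Targets of the receptors were described by lists drawn from general knowledge. The lists were not tested as sets, and a share near that of all genes is no result about a list. Over all genes, 23.8% rose and 23.7% fell with lipid alone, and 23.5% moved in each direction with lipid on itaconate. Of the 24 PXR and CAR targets tested, 4 rose and 9 fell with lipid alone, and 3 rose and 11 fell with lipid on itaconate. The numbers called, 13 and 14 of 24, stand beside 47.5% and 47% of all genes. The median log2 fold changes were −0.16 and −0.17, against 0.00 over all genes in each. *Cyp2b10*, the classical CAR-induced drug oxidase, rose from 25.1, 35.1, 17.2 and 33.1 CPM to 61.1, 64.3, 41.5 and 64.5 CPM. Its log2 fold change was 1.09 (SE 0.089, adjusted p = 1.82e-07), and 0.95 with itaconate present, where the groups overlapped. The bile acid and drug conjugate exporter *Abcc3* rose as well (0.40, adjusted p = 8.59e-07), while the aldehyde dehydrogenase *Aldh1a7* fell (−0.53, adjusted p = 1.25e-05). *Cyp3a11*, the main PXR-induced oxidase, was at 1260.2 CPM in untreated and 1143 CPM in lipid-treated cells, with a log2 fold change of −0.14 (adjusted p = 0.174). With itaconate alone edgeR called 0 of the 24 (4.91% of all genes), DESeq2 1 and limma-trend 0. An unadjusted p under 0.05 in edgeR's test was found for 5 of the 24, as for 21.3% of all genes. In lipid-loaded cells only *Cyp2a5* was called (0.26, adjusted p = 0.0193), where 2.58% of all genes were. It was not called without lipid + itaconate replicate B (0.22, adjusted p = 0.0585).

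Ahr targets went in both directions. Of 7 tested, 2 rose and 2 fell with lipid, and 1 fell with lipid on itaconate, against 47.5% and 47% of all genes called. *Cyp1a1*, the oxidase most used as a readout of Ahr, was near the detection limit, at 1.03, 0.877, 0.548 and 0.571 CPM in untreated and 1.46, 1.81, 0.811 and 1.148 CPM in lipid-treated libraries. It rose in every letter with overlapping groups (log2 fold change 0.79, SE 0.240, adjusted p = 0.0133). *Nqo1*, a quinone reductase, was the other gene that rose, and *Ugt1a6a*, a glucuronosyltransferase, and *Nfe2l2*, the antioxidant factor Nrf2, fell by 0.20 and 0.25. *Cyp1a2* was at 193 CPM in untreated and 185 CPM in lipid-treated cells and was not called. The core of the sequence that Ahr binds, GCGTG, is shown in the promoter of *Cyp1a1*, since this gene rose with lipid alone while its receptor's RNA fell. With lipid on itaconate *Cyp1a1* was not called. The 250 bases before its start (RefSeq, GRCm38.p6, chr9:57697363-57697612, plus strand) hold GCGTG and a TATA box, in capitals.
*Cyp1a1*: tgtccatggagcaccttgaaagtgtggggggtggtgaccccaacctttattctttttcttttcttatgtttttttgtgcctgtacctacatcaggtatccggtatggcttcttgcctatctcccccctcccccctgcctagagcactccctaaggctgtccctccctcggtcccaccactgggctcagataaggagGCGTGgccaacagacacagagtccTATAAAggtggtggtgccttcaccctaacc
GCGTG was searched on both strands and is present in 28.2% of 32851 such windows, and TATAAA in 12.4%. It was in 5 of the 15 windows of the 8 receptors that matched the promoter table.

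Glucocorticoid receptor targets went in both directions. With lipid alone 5 of 19 rose and 7 fell (median log2 fold change −0.05), and on itaconate 5 rose and 8 fell (−0.23), where 23.8% of all genes rose and 23.7% fell in the first and 23.5% each way in the second comparison. The transcription factor *Cebpd* fell from 35.1 ± 6.77 to 13.5 ± 4.72 CPM (SD, n = 4; log2 fold change −1.41, adjusted p = 6.23e-07). *Lpin1*, a phosphatidate phosphatase, fell by 0.91 on the log2 scale (adjusted p = 3.01e-06). *Zbtb16*, a zinc finger repressor, rose by 0.76 (adjusted p = 2.07e-05), and *Tsc22d3*, which encodes the anti-inflammatory protein GILZ, by 0.48 (adjusted p = 0.000582). Among gluconeogenic genes, *Pck1* fell (−0.61, adjusted p = 0.00852) and *G6pc* rose (0.62, adjusted p = 0.0204). In lipid-loaded cells itaconate raised *Tdo2*, the first enzyme of tryptophan breakdown (0.31, adjusted p = 0.0135, and 0.37, adjusted p = 0.00443, without lipid + itaconate replicate B). The *Tdo2* groups overlapped, and the call was lost with no replicate block and with the 8 libraries alone. Among chaperones and partners of the cytoplasmic receptors, 2 of 10 rose and 2 fell with lipid (23.8% and 23.7% of all genes), with *Hsp90aa1* and *Stip1* rising by 0.16 and 0.13.

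*Rara* itself was not called with lipid alone, whereas its relative *Rarb*, which is induced by retinoic acid through its own promoter, fell. *Rarb* was at 6.56, 6.77, 7.56 and 7.31 CPM in untreated and at 1.99, 2.52, 3.12 and 2.63 CPM in lipid-treated cells (log2 fold change −1.47, SE 0.108, adjusted p = 6.33e-08). On itaconate it fell from 6.75, 8.91, 9.90 and 8.85 CPM to 2.16, 2.47, 3.35 and 3.00 CPM (−1.65, adjusted p = 2.82e-08). The retinoic acid receptor gamma gene, *Rarg*, instead rose with lipid on itaconate (0.55, adjusted p = 0.000525), as *Rara* did. Of 6 retinoic acid receptor targets tested, 4 fell and 1 rose in each lipid comparison, with medians of −0.68 and −0.55. Of all genes, 23.7% and 23.5% fell in these comparisons. *Cyp26a1*, the enzyme that degrades retinoic acid, went from 73.5, 71.0, 80.9 and 68.8 CPM to 13.7, 21.3, 44.1 and 37.2 CPM (−1.40, SE 0.184, adjusted p = 2.08e-05). *Cyp26b1* (−1.33, adjusted p = 7.96e-05) and the retinal reductase *Dhrs3* (−1.11, adjusted p = 1.1e-07) fell too, and *Tgm2*, a transglutaminase, rose by 0.31. *Tgm2* was also lower with itaconate, by 0.20 alone (adjusted p = 0.0492) and by 0.25 in lipid (adjusted p = 0.0285, and 0.0655 without lipid + itaconate replicate B). In the list of ligand metabolism, 0 of 15 genes rose and 9 fell with lipid alone, and 0 rose and 10 fell on itaconate (medians −0.26 and −0.31), where 23.7% and 23.5% of all genes fell. The retinol dehydrogenases *Rdh10* (123 ± 14.3 to 65.7 ± 3.61 CPM, −0.90, adjusted p = 1.69e-07) and *Rdh11* (−0.51, adjusted p = 3.02e-07) had the lowest adjusted p, followed by *Serpina7*, thyroxine-binding globulin (−0.58, adjusted p = 0.000523). *H6pd*, which feeds NADPH to glucocorticoid activation, was raised by itaconate in lipid-loaded cells (0.24, adjusted p = 0.0264, and 0.0217 without lipid + itaconate replicate B). Its groups overlapped, and it was not called with no replicate block or with the 8 libraries alone. With lipid alone 4 of 9 hepatocyte markers fell and 0 rose (median −0.20), and with lipid on itaconate 7 fell and 1 rose (−0.22). Albumin was among those that fell in both (*Alb*, −0.18 and −0.18), and their part in these results was not tested.

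**Figure D4:**
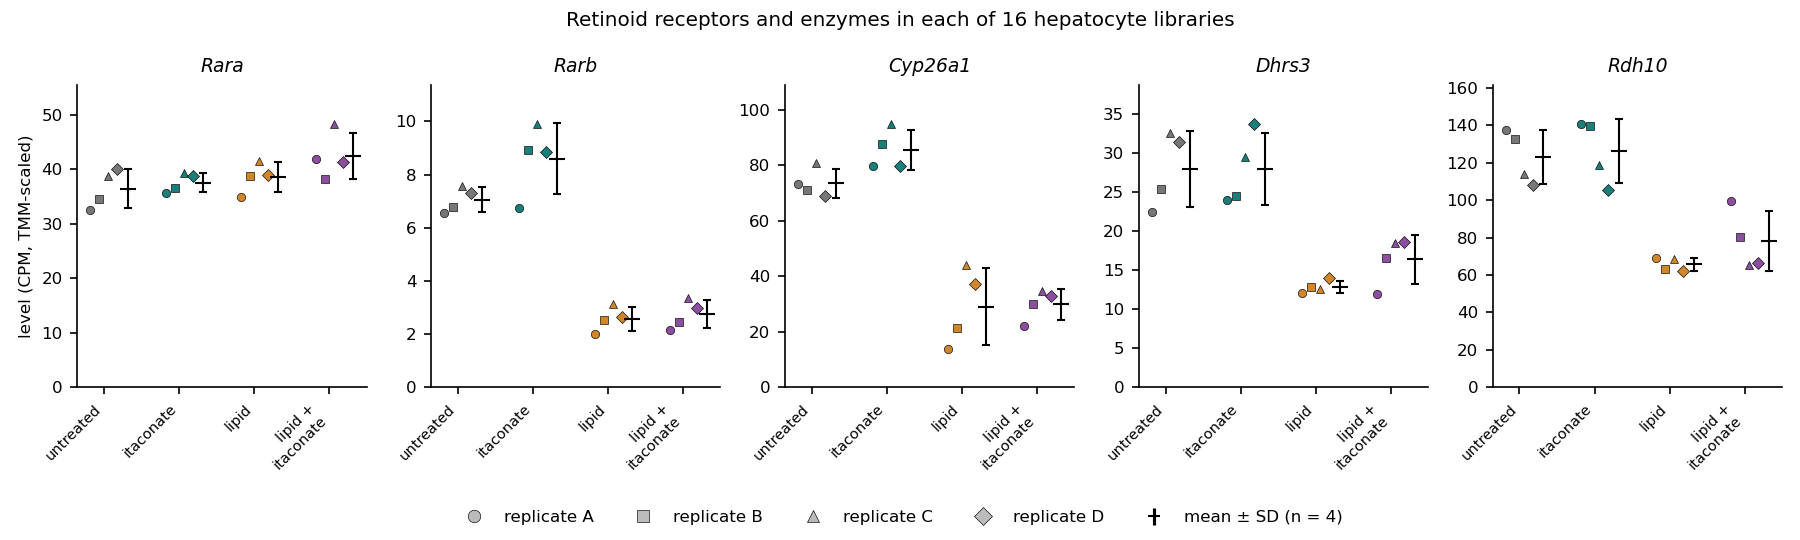
Level (CPM, y axis from 0) of *Rara*, *Rarb*, *Cyp26a1*, *Dhrs3* and *Rdh10* in each library by treatment, with the mean ± SD of 4. *Rara* overlaps between all groups, whereas the other 4 genes are lower with lipid in every letter, with and without itaconate.

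The promoter of *Cyp26a1* is shown because it holds the repeat to which retinoic acid receptors bind as dimers with RXR. The window is the 250 bases before the start (RefSeq, GRCm38.p6, chr19:37697558-37697807, plus strand). A direct repeat of AGGTCA or AGTTCA with 5 bases between the copies (DR5), searched on both strands, is in capitals, and its first base lies 32 bases before the start.
*Cyp26a1*: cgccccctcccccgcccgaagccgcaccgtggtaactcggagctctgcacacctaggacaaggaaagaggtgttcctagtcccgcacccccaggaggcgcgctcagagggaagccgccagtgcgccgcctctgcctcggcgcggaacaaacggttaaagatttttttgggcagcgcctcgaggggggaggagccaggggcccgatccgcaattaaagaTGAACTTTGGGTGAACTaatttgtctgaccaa
Only 11 of 32851 windows of this length (0.0335%) held such a repeat, and none of the 15 windows of the 8 receptors did. A single AGGTCA was found in 14% of all windows and in 3 of the 15, those of *Rxra*, *Thrb* and *Nr5a2*. *Ahr* and *Nr3c1*, which also fell with lipid alone, had no window and were not searched. *Nr5a2* was thus the only receptor called lower with lipid alone that could be searched. Its window (RefSeq, GRCm38.p6, chr1:136960449-136960698, minus strand) is shown with the element in capitals, 64 bases before the start.
*Nr5a2*: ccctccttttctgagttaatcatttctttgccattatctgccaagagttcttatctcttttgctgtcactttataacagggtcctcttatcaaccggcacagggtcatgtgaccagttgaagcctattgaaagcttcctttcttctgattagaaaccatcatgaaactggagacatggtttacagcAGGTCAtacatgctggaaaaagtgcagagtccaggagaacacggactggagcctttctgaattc
A match is a description of the letters and not a sign of binding.

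LRH-1 targets split as well. Of 8 tested, 1 rose and 3 fell with lipid (47.5% of all genes were called), and 1 rose and 4 fell on itaconate (47%). *Cyp8b1*, which sets the share of cholic acid among bile acids, rose from 9.03 ± 1.09 to 14.0 ± 3.58 CPM (SD, n = 4; 0.60, adjusted p = 3.79e-05), and by 0.99 on itaconate (adjusted p = 4.37e-07), while *Nr5a2* was lower or not called. *Cyp8b1* was also the 1 target that itaconate raised in lipid-loaded cells (0.32, adjusted p = 0.0459, and 0.109 without lipid + itaconate replicate B). *Plk3*, a stress kinase, was raised by itaconate alone (0.35, adjusted p = 0.00809) and lowered by lipid (−0.54, adjusted p = 1.49e-05). Of 9 thyroid hormone receptor targets, 4 rose and 2 fell with lipid (23.8% and 23.7% of all genes), with *Thrb* not called. The corepressor *Hr* rose from 2.34 ± 0.374 to 5.37 ± 1.42 CPM (1.17, adjusted p = 3.58e-05) and fell with itaconate in lipid-loaded cells (−0.68, adjusted p = 0.0339, and 0.104 without lipid + itaconate replicate B). *Gpd2*, a mitochondrial glycerophosphate dehydrogenase, rose by 0.57 (adjusted p = 2.01e-05).

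**Figure D5:**
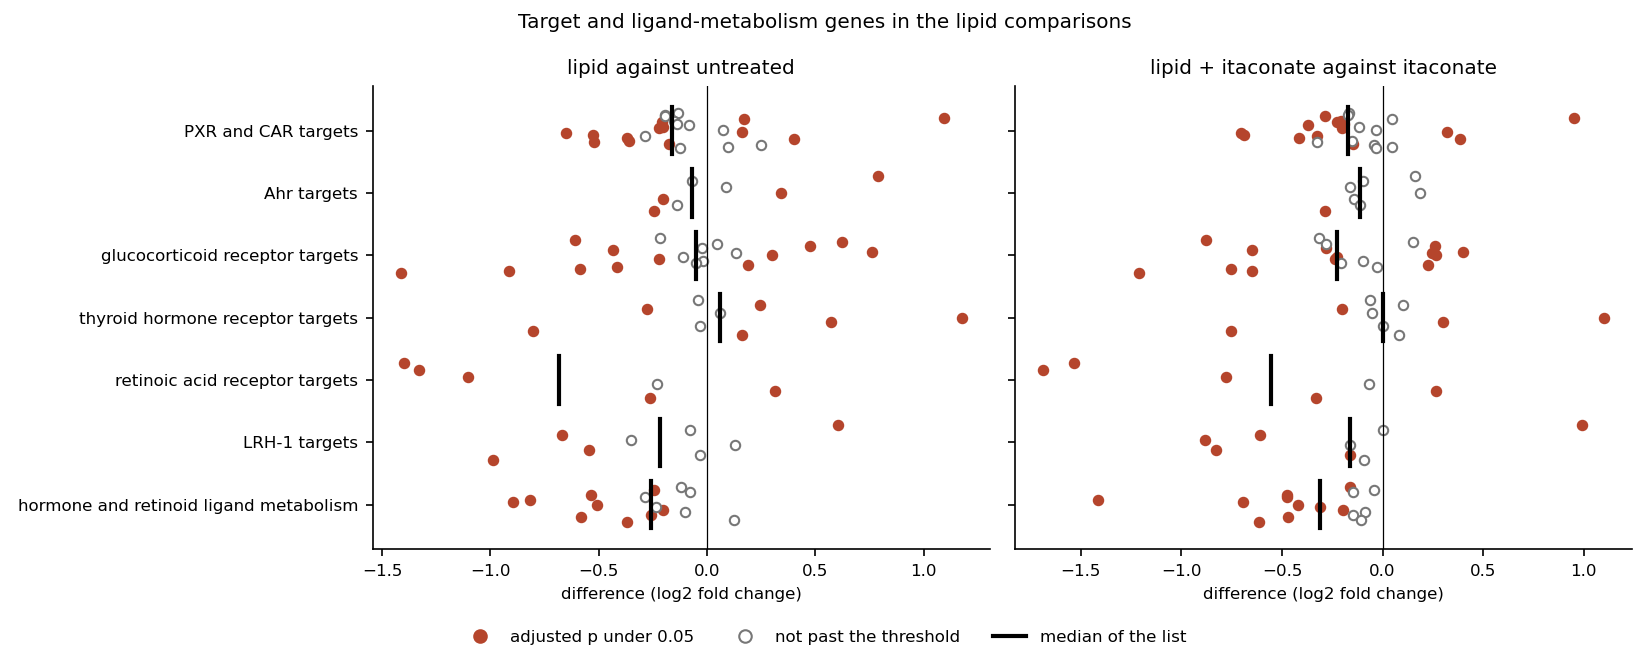
Log2 fold changes (x axis) of the tested genes of 7 lists (y axis) with lipid alone and with lipid on itaconate; red points have an adjusted p under 0.05 in edgeR's test and black bars are list medians. The retinoic acid receptor list has the lowest median (−0.68 and −0.55), and no called gene of the ligand metabolism list lies above 0.

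Of the other nuclear receptors, 25 of 40 were abundant enough to test. With itaconate alone 4 rose and 0 fell (1.96% and 2.95% of all genes), led by the orphan receptor *Nr2c2* (TR4; 63.2 ± 2.06 to 85.1 ± 6.78 CPM, 0.43, adjusted p = 0.00133). The clock receptors *Rora* (0.29, adjusted p = 0.00232) and *Nr1d2* (0.35, adjusted p = 0.0126) also rose. Lipid on itaconate lowered *Nr2c2* (−0.62, adjusted p = 2.49e-06) and *Rora* (−0.41, adjusted p = 5.5e-06). Lipid alone raised 6 and lowered 8 of the 25, among them the adipogenic receptor *Pparg* (−0.86, adjusted p = 9.88e-06), and on itaconate 4 rose and 9 fell, beside 23.8% and 23.7% of all genes in the first comparison and 23.5% each way in the second. Among 19 coregulators, *Ppargc1a*, a coactivator of mitochondrial and gluconeogenic genes, rose with itaconate alone from 3.23 ± 0.341 to 5.19 ± 0.359 CPM (0.69, adjusted p = 0.0121), and *Ncoa1* by 0.18. On addition of lipid to itaconate-treated cells 2 coregulators rose and 10 fell (23.5% of all genes each way), with *Nrip1*, a corepressor of nuclear receptors, falling by 0.68 (adjusted p = 4e-06).

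For each receptor the genes with the most similar pattern were found by Pearson's r of log2 CPM over the 16 libraries, with the mean of each letter removed, among 9644 to 9645 genes of at least 5 CPM. The points share libraries and the split by lipid, so r is a description. *Ahr* was most like *Slc39a10* (r = 0.987), a zinc importer, and *Cacul1* (0.987), and *Nr3c1* most like the urea cycle gene *Asl* (0.987) and *Rgn* (0.986). *Nr2f2* went with *Tk2* (0.973) and *Aimp1* (0.965), *Nr5a2* with *Trp53inp2* (0.964) and *Adamts7* (0.958), and *Nr1i2* with *Slc16a12* (0.946) and *Hars2* (0.932). The closest genes were *Rbbp7* (0.944) for *Rara*, *5830473C10Rik* (0.937) and *Tbcel* (0.937) for *Nr1i3*, *Flna* (0.915) and *Ndst1* (0.887) for *Thrb*, *Gmnn* (0.913) and *Utp3* (0.900) for *Rxra*, and *Chmp1a* (0.907) and *Phf5a* (0.861) for *Rxrb*.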

How the data were processed

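Poly(A) RNA from 16 cultures was sequenced with a stranded kit. The authors trimmed reads with cutadapt 1.18, aligned them to mm10 with STAR 2.7.0f and quantified GENCODE-annotated genes with RSEM 1.3.1, and the deposited values are expected counts per gene without normalization (5.41% not whole). All 55450 identifiers matched GENCODE M21 (GRCm38), which gave positions and exon lengths. Here counts were rounded, genes averaging 1 CPM or more kept, and TMM-scaled counts tested in R 4.3.3 with edgeR 4.0.16 (quasi-likelihood F-test, Benjamini-Hochberg adjustment over all genes tested, threshold 0.05). One model held all libraries, with treatment and replicate letter as terms. Same-letter libraries deviated together from their group means (24 correlations, 0.144 to 0.469, median 0.263). The 72 pairs with other letters ran from −0.436 to 0.178 (median −0.114), so the ranges overlap slightly. Subtracting group means itself lowers the correlations between other letters. The letters were treated as pairs. CPM are given with the SD over 4 libraries, and 0.5 was the prior count for log2 CPM. The scripts were tested on simulated counts. Alternatives were no letter, RLE, filterByExpr, no filter, the 8 libraries alone, DESeq2 1.42.0, limma-trend 3.58.1 and each library left out. The receptors, lists and tests were chosen with earlier results of these data known. Named list genes are at most the 3 called genes with the lowest adjusted p per list and comparison. *Nqo1*, *Cyp1a2*, *Cyp3a11*, *Tsc22d3*, *G6pc*, *Rarg*, *Alb* and *Cd68* were added after their values were seen. A few genes that this rule names are not reported here.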

Additional observations from a re-analysis of the deposited data

Results flagged for a closer look

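*Thrb* in lipid-treated replicate C was at 9.28 CPM, while the other 3 lipid-treated libraries were at 11.6 to 11.9 CPM. The gap was large for the range of its group (Dixon's ratio 0.862). It was the 1 group flagged of 40 groups of 4 libraries, where chance flags about 1 in 20, or 2 of 40.

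*Nr1i2* moved up with itaconate in every letter without lipid and down in every letter with lipid. The interaction of −0.34 was tested and did not pass after adjustment (adjusted p = 0.449 in edgeR's model).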

How the results depend on the processing

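The calls of *Ahr*, *Nr3c1* and *Nr2f2* in both lipid comparisons, and of *Nr1i2* and *Nr5a2* with lipid alone, held under every alternative run. The number of receptors called with itaconate alone was 0, but 2 with no filter and 2 with the 8 libraries alone. With itaconate in lipid-loaded cells 1 was called, but 0 with no replicate block and 0 with the 8 libraries alone, and 0 to 1 with a library left out. For lipid alone the count was 5 to 6, and for lipid on itaconate it was 6, against 3 with no replicate block and 3 to 5 with a library left out. Without the block *Nr1i2* (adjusted p = 0.0849), *Nr1i3* (0.0798) and *Rara* (0.0902) lost their call for lipid on itaconate and *Rxra* its call for lipid alone (0.146). RLE also ended the calls of *Rxra* (0.0586) and *Nr1i2* on itaconate (0.059), as did DESeq2 (0.0613 and 0.0742), no filter (0.0835 and 0.0951) and the 8 libraries alone (0.0776 and 0.0634), and filterByExpr that of *Nr1i2* (0.0573). The 8 libraries alone also ended that of *Nr1i3* (0.0821), which left 4 receptors for lipid on itaconate. The cause was not tested.

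The sign changed only in uncalled values with a library left out. The ranges of the log2 fold change were −0.015 to 0.064 (*Rxrb*, itaconate), −0.17 to 0.22 (*Nr1i3*), −0.014 to 0.16 (*Nr3c1*), −0.036 to 0.23 (*Nr5a2*) and −0.20 to 0.034 (*Nr2f2*, all for itaconate in lipid), −0.14 to 0.041 (*Nr1i3*, lipid), −0.079 to 0.0089 (*Rxrb*) and −0.073 to 0.22 (*Thrb*, both for lipid on itaconate). For the interaction they were −0.044 to 0.020 (*Rxra*), −0.027 to 0.22 (*Nr2f2*) and −0.23 to 0.053 (*Thrb*, reversed without untreated replicate C or lipid + itaconate replicate B).

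Counts over all genes depend on the model for itaconate. With itaconate alone 573 genes were called, against 23 with no replicate block, 1091 with no filter and 1859 with the 8 libraries alone. In lipid-loaded cells it was 301, against 9, 725 and 14, and 509 by DESeq2. The interaction gave 1 gene, against 0, 231 with no filter and 36 by DESeq2. List counts with lipid alone fell with no replicate block from 13 to 5 (PXR and CAR targets), 12 to 5 (glucocorticoid receptor targets), 4 to 1 (Ahr targets), 4 to 1 (chaperones) and 9 to 3 (ligand metabolism). With lipid on itaconate they fell from 14 to 6, 13 to 7 and 10 to 6 for the first 2 lists and the last. The retinoic acid receptor list changed by less. With itaconate alone, 0 to 4 genes per list were called, against 0 to 1 with no replicate block and 1 to 8 with the 8 libraries alone. In lipid-loaded cells it was 0 to 1, against 0 and 0, 0 to 4 with no filter and 0 to 3 by DESeq2. Without lipid + itaconate replicate B, a fit added after seeing the data, 3 of 7 list genes called for itaconate in lipid kept their call, and 78 of 82 for lipid on itaconate.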
